A study of Oryctolagus cuniculus with 57 samples.

Results

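Genes of IgA secretion were read as RNA in the ileum of young rabbits: PIGR, TNFSF13 (APRIL), TNFSF13B (BAFF), TNFRSF17 (BCMA) and IGHM. Secretion itself was not measured here. The study reported that IgA in ileal contents fell with age in all groups and did not differ between them. The rule took every row of the deposited table of 33284 normalized values whose probe maps to 1 of 6 symbols by the names, accessions or record titles on the array or by the gene names in the study's tables. Those tables list genes that the study called changed with age in these arrays. JCHAIN had no matching probe and was not analysed here. The other 5 genes held 19 rows of the table, 6 for PIGR, 4 each for TNFSF13, TNFSF13B and IGHM, and 1 for TNFRSF17, and all 19 passed the background filter. They are 5 of the 7960 genes tested. A further IGHM probe, to the clone N104, was well above background on 0 of 56 arrays and is not in that table.

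IgA is made by plasma cells of the lamina propria, mostly as dimers held together by the joining chain. APRIL and BAFF are cytokines of the TNF family. They are made by myeloid, stromal and epithelial cells, and they sustain B cells and plasma cells through receptors that include BCMA, which mature plasma cells carry. The polymeric immunoglobulin receptor, PIGR, is made by the epithelium, which uses it to carry polymeric IgA and IgM from the basal side to the lumen.

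The animals were commercial hybrid rabbits, of either sex, sampled once each at day 35 (weaning) or day 49. In all groups the feces of the mother were removed from the nest. NF pups got none in their place, FF pups got feces of unrelated untreated does, and FFab pups got feces of unrelated does that drank tiamulin and tetracycline. The feces were given by nest, and litter and sex entered none of the tests. Whole ileal RNA was labelled with Cy3 and read on 1-colour 60-base oligonucleotide arrays, so that fewer cells of a type and less RNA per cell cannot be told apart. Day 35 had 10 rabbits each of FF and FFab and 9 of NF, and day 49 had 9 of each treatment, 56 in all. The study removed 1 outlying sample, which its text does not name. Rabbit lap78 of NF at day 35 was left out here. Its median correlation with the arrays kept was 0.935, where that of each array kept with the others was at least 0.961.

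The arrays lay on 9 slides of 6 to 7, between 66% and 83.7% of spots on an array were well above background, and 0 spots were saturated. On 7 of the 56 arrays the ileal bile acid transporter SLC10A2 lay between 2.10 and 5.23 on the log2 scale, against 8.08 to 13.57 on the other 49. On the same 7 arrays FABP6, the ileal bile acid binding protein, lay between 7.87 and 15.48, against 17.71 to 19.29. GATA4, a transcription factor of the proximal small intestine that was looked up after these values were seen, lay between 7.91 and 8.61, against 4.07 to 7.36. These arrays were NF rabbits lap93 (day 35) and lap206 (day 49) and FFab rabbits lap96, lap107 and lap109 (day 35) and lap173 and lap185 (day 49), and the FF groups held 0 of them. PIGR moved with this split among the FFab rabbits of day 35, with a mean of 16.82 on the 3 low arrays and 15.59 on the other 7. That difference of 1.23 was the largest. It was 0.50 in FFab at day 49, and with 1 low array each 0.63 in NF at day 35 and -0.14 in NF at day 49. Age changes of the genes and of the main immunoglobulin probes in NF and FFab are given with and without these arrays, the choice to leave them out having been made after seeing the data.

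The sequences of the heavy chain probes are shown because the 4 IGHM probes gave changes of different size, and those of PIGR and TNFRSF17 because each is a separate or only witness of its gene. Capitals mark stretches of at least 10 bases shared with the IGHM probe of the study's tables, read 5′ to 3′.
IGHM probe of the study's tables: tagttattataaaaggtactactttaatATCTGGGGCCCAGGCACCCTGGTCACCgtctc
IGHVDJ probe of the study's tables: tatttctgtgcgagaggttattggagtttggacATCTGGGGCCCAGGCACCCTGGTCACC
IGHM, mu V-D-J clone P235: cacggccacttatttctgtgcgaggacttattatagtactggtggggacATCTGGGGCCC
IGHM, mu V-D-J clone P211: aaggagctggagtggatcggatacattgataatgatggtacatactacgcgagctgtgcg
IGHM, mu chain in its secreted form: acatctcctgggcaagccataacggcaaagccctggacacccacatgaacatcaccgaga
IgA alpha chain, constant region: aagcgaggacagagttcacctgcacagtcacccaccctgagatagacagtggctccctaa
PIGR, single probe of its other site: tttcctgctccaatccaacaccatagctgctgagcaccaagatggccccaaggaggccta
TNFRSF17: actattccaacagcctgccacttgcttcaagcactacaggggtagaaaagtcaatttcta

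The IGHM and IGHVDJ probes of the study's tables share an unbroken run of 27 bases, ATCTGGGGCCCAGGCACCCTGGTCACC, which is held by 6 of the 42089 probes of the array (0.0143%). The heavy chain probes carry no position in the files. The name secreted form is that of the record of its probe, and whether that probe reads the membrane form as well was not tested. The immunoglobulin genes form a multigene family, and how far their probes take up each other's transcripts was not tested. In the oryCun2 build named in the file headers, 5 PIGR probes shifted by single bases cover chr16:65458805-65458868 and the sixth lies at chr16:65457731-65457790. The 4 TNFSF13 probes cover chr19:11615978-11616037, the 4 TNFSF13B probes lie within chr8:110057774-110061959, and the TNFRSF17 probe lies at chr6:5386771-5386830. No annotation of that build was used here, so exon and UTR are not given.

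Of the 5 genes of IgA secretion 3 rose from day 35 to day 49 in FF rabbits: the transporter PIGR by 1.88-fold, the cytokine TNFSF13 by 1.72-fold and the plasma cell receptor TNFRSF17 by 1.93-fold. The median-level IGHM probe differed by 1.85-fold and TNFSF13B by 1.44-fold without passing. To pass, a gene needed a log2 change over 0.5 in size and an adjusted p under 0.05, which 4.3% of genes reached in FF and 2.8% with a higher level. In FFab rabbits 1 of the 5 genes passed, TNFSF13, against 0.0754% of genes, and in NF rabbits 0 of 5 passed, against 0.0377%. At an unadjusted p under 0.05, where chance alone gives a share of 0.05, 478 genes were counted in NF and 668 in FFab. Over all rabbits, with the treatments weighted equally, 4 of 5 passed and all 4 were higher, against 3.47% of genes in either direction and 2.39% higher. IGHM was among these at its median-level probe, and 2 of its 4 probes passed in the fit over all probes. The probe named for the secreted mu chain did not pass there (0.60 over all rabbits, adjusted p = 0.442). TNFRSF17 was named only from the study's tables of genes changed in these data. Its passing cannot be set against the share of all genes. The study also reported PIGR and TNFSF13 as higher with age in FF rabbits on these arrays. The genes read here were chosen with earlier results of these data known. The counts of them that passed were thus partly selected on these data. They are not an independent test against the shares of all genes.

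PIGR was the epithelial gene among them. Its median-level probe read between 15.05 and 16.40 with a median of 15.70 in FF at day 35, and between 16.0 and 17.46 with a median of 16.81 at day 49. In NF it went from 15.51 to 16.69 with a median of 16.14 at day 35, and from 16.31 to 17.08 with a median of 16.73 at day 49. In FFab it went from 14.97 to 17.03 with a median of 15.79 at day 35, and from 15.66 to 17.39 with a median of 16.80 at day 49. The ages overlapped in all 3 treatments, but 7 of 9 FF rabbits of day 49 lay above every FF rabbit of day 35. The means of day 49 were 16.71 in FF, 16.72 in NF and 16.72 in FFab, so that the spread between treatments lay at day 35, where FF averaged 15.80 ± 0.40 (SD, n = 10), FFab 15.96 ± 0.74 (n = 10) and NF 16.13 ± 0.37 (n = 9). None of these neighbours in the order differed beyond the spread. The order also rested on the arrays low in ileal markers. Without them FFab averaged 15.59 (n = 7) and NF 16.06 (n = 8) at day 35, so that FFab and not FF was lowest. The change with age was 0.91 ± 0.22 on the log2 scale (SE, adjusted p = 0.0063 in limma) in FF. It was 0.59, with a 95% interval of 0.14 to 1.04, in NF (adjusted p = 0.558) and 0.76, with an interval of 0.32 to 1.20, in FFab (adjusted p = 0.207). Over all rabbits PIGR rose by 0.75 ± 0.13 (adjusted p = 4.14e-05). All 6 PIGR probes passed in FF in the fit over all 31722 probes, of which 3.15% passed, with changes of 0.83 to 0.95. The other PIGR site rose by 0.95 ± 0.28 (adjusted p = 0.0258), a call that was lost when rabbit lap213 or lap180 of day 49 was left out, with an adjusted p of up to 0.0581. Its deviations from the group means followed those of the median-level probe with a correlation of 0.86. Without the 7 arrays low in ileal markers the PIGR change was 0.91 in FF (adjusted p = 0.00154) and did not pass at 0.68 in NF or 1.02 ± 0.22 in FFab (adjusted p = 0.217 and 0.0532). The FFab change of 0.89 passed (adjusted p = 0.0353) once rabbit lap201 of day 49, the lowest of its group, was left out.

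TNFSF13 encodes the cytokine APRIL. In FF it read from 11.31 to 12.07 with a median of 11.75 at day 35 and from 11.61 to 12.99 with a median of 12.54 at day 49. In NF it read from 11.30 to 12.74 with a median of 11.81 and then from 11.84 to 12.91 with a median of 12.31. In FFab it read from 11.24 to 12.42 with a median of 11.58 and then from 11.43 to 13.44 with a median of 12.63. In FF and in FFab 7 of 9 rabbits of day 49 lay above all rabbits of day 35, and in NF 1 of 9 did. The change with age was 0.78 ± 0.19 (adjusted p = 0.00757) in FF and 0.89 ± 0.19 (adjusted p = 0.0311) in FFab. In NF it was 0.45, with an interval of 0.05 to 0.85 (adjusted p = 0.745), and 0.53 without the 7 low arrays (adjusted p = 0.443). Over all rabbits TNFSF13 rose by 0.71 ± 0.11 (adjusted p = 1.5e-05). The 4 probes moved as 1, between 0.77 and 0.79 in FF, where 4 of 4 passed. In FFab they changed by 0.87 to 0.91 and 0 of 4 passed in the fit over all probes, of which 0.0158% passed. The FFab call was also lost without the 7 low arrays (0.83, adjusted p = 0.318) and in 12 of 56 fits that left out 1 rabbit, each of them of FFab, where the adjusted p reached 0.128.

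TNFSF13B encodes BAFF, the other ligand of the pair, and lay near background, well above it on 44 of 56 arrays. In FF it read from 3.26 to 6.86 with a median of 5.59 at day 35 and from 4.02 to 7.26 with a median of 6.10 at day 49. In NF it read from 2.89 to 6.80 with a median of 5.97 and then from 4.16 to 6.96 with a median of 6.52. In FFab it read from 3.46 to 6.48 with a median of 5.28 and then from 3.04 to 6.41 with a median of 5.10. All ages overlapped, and the spread within a group was wider than any shift. The change was 0.53 in FF with an interval of -0.51 to 1.56 (adjusted p = 0.635), and 0.28 over all rabbits with an interval of -0.33 to 0.88. Its 4 probes changed by 0.32 to 0.78 in FF and by -0.31 to 0.09 in FFab, and 0 of 4 passed in any treatment. Of all probes 3.15% passed in FF and 0.0158% each in NF and FFab.

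TNFRSF17, the receptor BCMA of plasma cells, was read by 1 probe that the study's tables name and the array files do not. Those tables hold genes the study called changed with age, so this probe was selected on these data. In FF it read from 7.88 to 9.73 with a median of 8.62 at day 35 and from 9.14 to 10.41 with a median of 9.64 at day 49. In NF it read from 8.13 to 10.1 with a median of 9.17 and then from 8.46 to 10.21 with a median of 9.67. In FFab it read from 7.72 to 10.28 with a median of 9.01 and then from 7.65 to 10.53 with a median of 9.89. Of the 9 FF rabbits of day 49, 9 lay above the median of day 35 and 4 above its highest value. TNFRSF17 rose by 0.95 ± 0.28 in FF (adjusted p = 0.026) and by 0.67 ± 0.16 over all rabbits (adjusted p = 0.0036). The change was 0.49 in NF, with an interval of -0.09 to 1.07 (adjusted p = 0.932), and 0.56 in FFab (adjusted p = 0.592). Without the 7 low arrays these were 0.66 and 0.44 (adjusted p = 0.534 and 0.999). The FF call was lost when rabbit lap88 of day 35 or rabbit lap180 or lap209 of day 49 was left out, with an adjusted p of up to 0.0586.

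Whether IGHM, the mu heavy chain, passed in FF depended on which probe was read. Whether its V-D-J probes read the mu chain alone was not tested. The median-level probe, to the V-D-J clone P211, was well above background on 52 of 56 arrays. In FF it read from 4.46 to 7.29 with a median of 5.26 at day 35 and from 5.74 to 7.35 with a median of 6.30 at day 49. In NF it read from 4.45 to 7.90 with a median of 5.51 and then from 5.82 to 7.06 with a median of 6.46. In FFab it read from 4.46 to 6.66 with a median of 5.51 and then from 5.37 to 7.06 with a median of 6.78. The highest values of day 35 were those of FF rabbit lap101 and NF rabbit lap93, the latter 1 of the 7 low arrays, above most rabbits of day 49. Its change was 0.89 in FF with an interval of 0.20 to 1.57 (adjusted p = 0.105). It was 0.70 in NF and 1.0 in FFab, with adjusted p = 0.817 and 0.344, and 1.03 and 1.07 without the 7 low arrays, with adjusted p = 0.278 and 0.688. Over all rabbits it rose by 0.86 ± 0.20 (adjusted p = 0.00205), and without rabbit lap101 of FF at day 35 the FF change of 1.08 passed (adjusted p = 0.0345).

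The IGHM probe of the study's tables separated the ages in FF. In FF it read from 8.58 to 9.80 with a median of 9.53 at day 35 and from 9.81 to 11.36 with a median of 10.34 at day 49, so every rabbit of day 49 lay above every rabbit of day 35. Of the 19 probes of the 5 genes 2 were separated in this way in FF, this one and 1 of PIGR, and 0 in NF or FFab, against 0.306% of all probes in FF, 0.00315% in NF and 0% in FFab. The IGHM probe of the 2 owes its name only to the study's tables of genes changed with age. The count was thus partly selected on these data. The probe rose by 1.17 ± 0.26 in FF (adjusted p = 0.00317 in the fit over all probes). In NF it read from 8.89 to 10.39 with a median of 9.92 and then from 9.29 to 11.17 with a median of 10.46, a change of 0.55 with an interval of 0.02 to 1.09 (adjusted p = 0.818). In FFab it read from 8.48 to 10.79 with a median of 9.52 and then from 8.85 to 11.22 with a median of 10.54, a change of 0.76 with an interval of 0.23 to 1.28 (adjusted p = 0.341). Without the 7 low arrays these changes were 0.74 and 0.66 (adjusted p = 0.385 and 0.916). The interval of the P211 probe in FF holds the change of this one, and whether the probes differed was not tested. The probe to the secreted mu chain read from 6.85 to 12.84 in FF at day 35 and from 8.74 to 11.71 at day 49, a change of 0.62 with an interval of -0.93 to 2.17 (adjusted p = 0.746). The probe to clone P235 changed by 0.19 with an interval of -0.93 to 1.31. The 6 probes that hold the 27-base run changed by 0.99 to 1.32 in FF, and 5 of 6 passed. The exception was the IGHVDJ probe, at 0.99 ± 0.33, which passed among the 7960 genes (adjusted p = 0.0488) and not among all probes (adjusted p = 0.0537). These 6 probes share sequence and are not separate witnesses.

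Immunoglobulin chains of all classes, with the 4 IGHM probes among them, were read from 31 probes that passed the filter, of 42 named as such in the files or the study's tables. In FF 17 of 31 rose and 0 fell, with a median change of 1.05 against -0.01 over all probes, of which 2.12% were higher. In NF the median was 0.64 and in FFab 0.74, with 0 of 31 passing in either, where 0.0158% of all probes passed in each. Over all rabbits 25 of 31 rose with a median of 0.81, where 1.76% of all probes were higher. Without the IGHM probes 16 of 27 rose in FF, with a median of 1.05. The constant region of alpha, the heavy chain of IgA, read from 15.03 to 15.88 in FF at day 35 and from 15.87 to 16.97 at day 49, with 8 of 9 older rabbits above all younger ones. It rose by 0.94 ± 0.19 in FF (adjusted p = 0.00163) and by 0.75 ± 0.11 over all rabbits (adjusted p = 5.95e-06), while the NF and FFab changes of 0.65 and 0.67 did not pass (adjusted p = 0.364 and 0.215), nor did 0.75 and 0.63 without the 7 low arrays (adjusted p = 0.16 and 0.789). The b5 allotype of kappa, the light chain, read from 13.99 to 15.30 and then from 15.03 to 16.23 in FF, and rose by 1.20 ± 0.27 (adjusted p = 0.00369). Its NF and FFab changes of 0.73 and 0.88 did not pass, nor did 0.87 and 0.73 without the 7 low arrays (adjusted p = 0.587, 0.242, 0.289 and 0.887 in that order). The gamma chain of IgG read from 7.04 to 11.93 and then from 9.54 to 12.98 in FF. It rose by 2.32 ± 0.64, 5.0-fold (adjusted p = 0.0169), while the NF and FFab changes of 2.32 and 1.69 did not pass (adjusted p = 0.263 and 0.401), nor did 2.31 and 1.32 without the 7 low arrays (adjusted p = 0.236 and 0.999). With rabbit lap201 of FFab at day 49 left out, alpha and kappa passed in FFab as well, at 0.82 and 1.16 (adjusted p = 0.0223 and 0.0123).

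**Figure D1:**
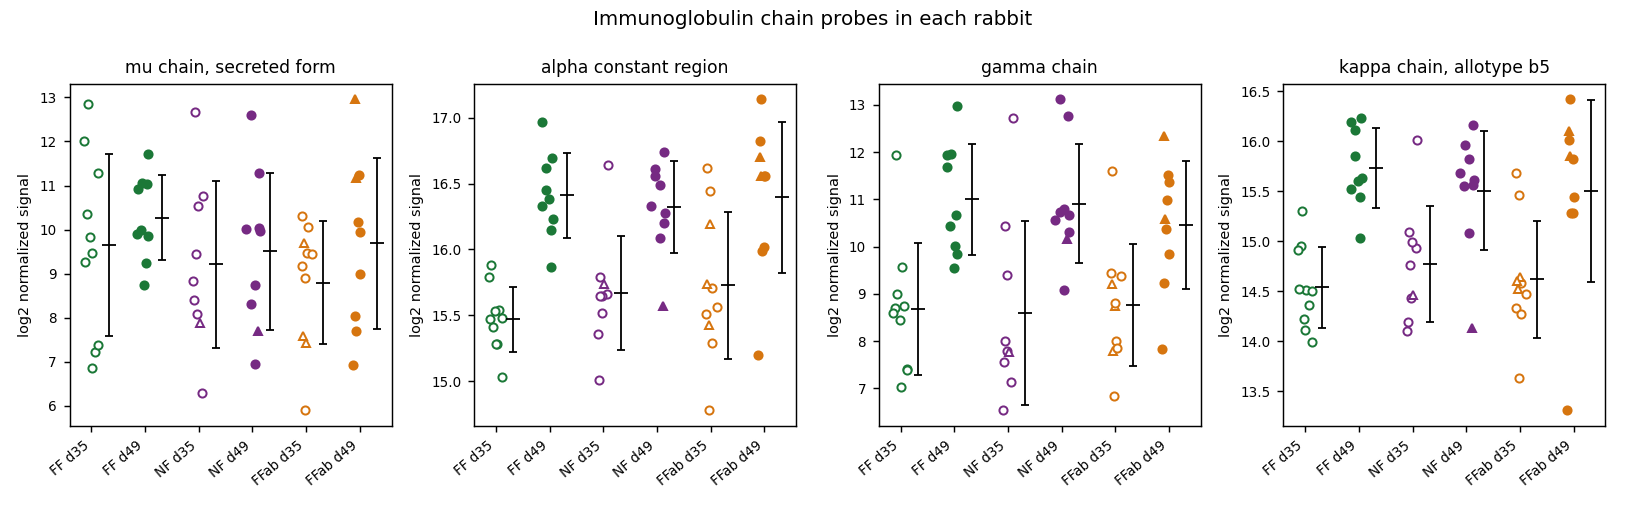
Normalized log2 signal of the immunoglobulin chain probes in each rabbit, by treatment and age. Open points are day 35, filled points day 49, bars the mean ± SD and triangles the 7 arrays low in ileal markers. The alpha constant region averaged 15.47 at day 35 and 16.41 at day 49 in FF.

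Whether the age changes differed between treatments was tested directly. Of 15 differences between treatments in the age changes of the 5 genes 0 passed, as did 0 of the 7960 genes, with 362 at an unadjusted p under 0.05 between FF and NF, 227 between FF and FFab and 73 between NF and FFab. Each of these counts at an unadjusted p lies below the share of 0.05 that chance alone gives. For PIGR the FF change exceeded the NF change by 0.32 (interval -0.31 to 0.95) and the FFab change by 0.15 (interval -0.48 to 0.78). For TNFRSF17 these differences were 0.46 (interval -0.35 to 1.27) and 0.39 (interval -0.41 to 1.19). For TNFSF13 the NF change lay below the FFab change by 0.44 (interval of the NF minus FFab difference -1.0 to 0.11). A call in FF and none in NF or FFab is therefore not shown to be a difference between treatments. None of the 5 genes passed between treatments at either age, against 0.0377% of genes for FF and NF at day 35, 0.0126% for FF and FFab at day 35 and 0% in the other 4 comparisons. At day 35 PIGR differed between FF and NF by -0.33 with an interval of -0.78 to 0.11, and at day 49 by -0.01 with an interval of -0.47 to 0.44.

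Each slide held both ages, and the changes were also read within slides. In FF the mean of day 49 exceeded that of day 35 on 9 of 9 slides for PIGR, TNFSF13 and TNFRSF17, with mean differences of 0.90, 0.80 and 0.99. In NF, where 8 slides held both ages, PIGR was higher on 8 of 8, TNFSF13 on 7 of 8 and TNFRSF17 on 6 of 8. In FFab each of the 3 genes was higher on 7 of 9.

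Other genes of the pathway, in lists drawn up with earlier results of these data known, were read beside them. Of all genes tested 2.8% passed with a higher level in FF. Of 9 further receptors and signalling genes of BAFF and APRIL 6 could be tested and 0 passed in FF, with a median change of 0.23 against -0.01 over all genes. MAP3K14, the kinase of the alternative NF-κB pathway, was at 0.25 ± 0.17 (adjusted p = 0.445) and NFKB2, a subunit of that pathway, at 0.25 ± 0.13 (adjusted p = 0.263). Of 26 genes of IgA switching and gut homing 11 were tested and ITGB7 rose in FF, an integrin chain that takes lymphocytes to the gut (0.56 ± 0.18, adjusted p = 0.0449), while its partner ITGA4 was at 0.54 ± 0.22 (adjusted p = 0.143). The count of 1 became 0 when any of 14 of the 19 FF rabbits was left out, and it lay between 0 and 2 under the other alternatives. Of 15 plasma cell genes 7 were tested and 2 rose in FF, the surface receptor SLAMF7 (0.92 ± 0.19, adjusted p = 0.00188) and the endoplasmic reticulum protein FKBP11 (0.51 ± 0.14, adjusted p = 0.0195), with a median of 0.45. With single rabbits left out 1 to 3 of the plasma cell genes passed, the count falling to 1 without any of 10 FF rabbits. Under none of the other alternatives did it fall below 2. Of 18 B cell and follicle genes 8 were tested and 0 passed, with a median of 0.19. The mean of that B cell list ranged from 5.29 to 9.12 among FF rabbits of day 35 and from 5.98 to 8.70 at day 49.

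Of 15 genes known to induce PIGR in epithelium or to signal to it, 11 were tested. Of these 4 rose in FF and over all rabbits, against 2.8% and 2.39% of all genes, with an FF median of 0.35. Among them were the cytokine IFNG (1.49 ± 0.46, adjusted p = 0.0347, well above background on 30 of 56 arrays), the transcription factor IRF1 (0.98 ± 0.28, adjusted p = 0.0189) and the double-stranded RNA receptor TLR3 (0.92 ± 0.20, adjusted p = 0.00197). In NF and FFab 0 of 11 passed, against 0.0377% and 0.0754% of all genes. Of 14 epithelial genes 9 were tested and 1 passed in FF, the keratin KRT18, which fell by 0.63 (SE 0.16, adjusted p = 0.00772), and the median of the list was 0.00. Over all genes 4.3% passed in FF in either direction. The mean level of the epithelial list stayed between 13.02 and 13.63 on all 56 arrays. Of 12 mononuclear phagocyte genes 7 were tested and 0 passed, with a median of -0.13. SLC10A2 and FABP6, the 2 ileal enterocyte genes tested of 6, changed by 1.02 ± 1.36 and 0.01 ± 1.23 in FF.

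Whether plasma cell and epithelial genes moved together was read from the deviations of each rabbit from the mean of its group, over 56 arrays, with permutation p-values adjusted over the 10 pairs of the 5 genes. These arrays share slides and normalization. PIGR and TNFRSF17, 1 of epithelium and 1 of plasma cells, had r = 0.40 and rho = 0.41 (adjusted permutation p = 0.0096 and 0.0057). Without the 2 arrays farthest from the PIGR median r was 0.34, without the 7 low arrays 0.42, and with slide means removed 0.56, and within slides it was positive on 7 of 9. Before group means were removed it was 0.59. PIGR and TNFSF13 had r = 0.67 and rho = 0.66 (adjusted permutation p = 5e-05 and 1e-04), positive on 9 of 9 slides and 0.63 without the 2 farthest arrays. TNFSF13 and TNFRSF17 had r = 0.61 and rho = 0.50 (adjusted permutation p = 6.7e-05 and 8e-04), and 0.48 without the 2 farthest arrays. In all, 6 of the 10 pairs passed by r.

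PIGR and IGHM, at its median-level probe, had r = 0.44 and rho = 0.47 (adjusted permutation p = 0.0025 and 0.0016), which fell below the threshold at r = 0.33 without the 7 low arrays (adjusted permutation p = 0.062). For TNFSF13 and IGHM r was 0.37 with all arrays and 0.30 without those 7 (adjusted permutation p = 0.0096 and 0.063). TNFRSF17 and IGHM had r = 0.18 and rho = 0.19 (adjusted permutation p = 0.26 and 0.23). TNFSF13B went with TNFRSF17 at r = 0.57 and rho = 0.56 (adjusted permutation p = 5e-05 and 0.00015), and with PIGR at r = 0.02 and rho = 0.07 (adjusted permutation p = 0.87 and 0.67).

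The same measure was taken against the immunoglobulin probes, in a family of 28 pairs of which 19 passed by r. TNFRSF17 followed kappa at r = 0.88 and rho = 0.79, alpha at 0.81 and 0.72, and the IGHM probe of the study's tables at 0.79 and 0.71. It followed gamma at 0.66 and 0.59 and the probe named for the secreted mu chain at 0.62 and 0.56. Each of these had an adjusted permutation p for r of 3.1e-05. TNFSF13 followed alpha at r = 0.71 and rho = 0.59 (adjusted permutation p = 3.1e-05 for r), and PIGR followed alpha at r = 0.43 and rho = 0.43 (adjusted permutation p = 0.0076 for r). The probe named for the secreted mu chain had r = 0.09 with PIGR and r = 0.79 with TNFSF13B (adjusted permutation p = 0.55 and 3.1e-05). Whether its values are those of the secreted form was not tested. Without the 2 arrays farthest from the x-axis median r for these pairs was 0.84, 0.74, 0.72, 0.61 and 0.56 for TNFRSF17 in the order given, 0.62 for TNFSF13 with alpha, 0.38 for PIGR with alpha, 0.06 for PIGR with mu and 0.76 for TNFSF13B with mu.

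It was also taken against the means of the marker lists, in a family of 30 pairs of which 12 passed by r. TNFSF13B followed the B cell and follicle list at r = 0.90 and rho = 0.93 (adjusted permutation p = 1e-04 for both), which was 0.91 without the 2 farthest arrays. TNFRSF17 followed the plasma cell list at r = 0.78 and rho = 0.77 (adjusted permutation p = 1e-04), 0.75 without the 2 farthest, and the B cell list at r = 0.51 and rho = 0.47 (adjusted permutation p = 0.00015 for r), 0.47 without them. PIGR had r = 0.00 with the B cell list, 0.02 with the epithelial list, 0.23 with the plasma cell list and 0.26 with the list of its inducers (adjusted permutation p = 0.97, 0.96, 0.19 and 0.2). Its rho with these lists was 0.01, 0.01, 0.28 and 0.29. TNFSF13 had r = 0.14 with the B cell list and 0.39 with the plasma cell list, and rho of 0.10 and 0.32 (adjusted permutation p for r = 0.4 and 0.012), which were 0.07 and 0.29 without the 2 farthest arrays. The B cell and plasma cell list means moved with TNFSF13B and TNFRSF17 from rabbit to rabbit, and their part in the age changes was not tested.

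**Figure D2:**
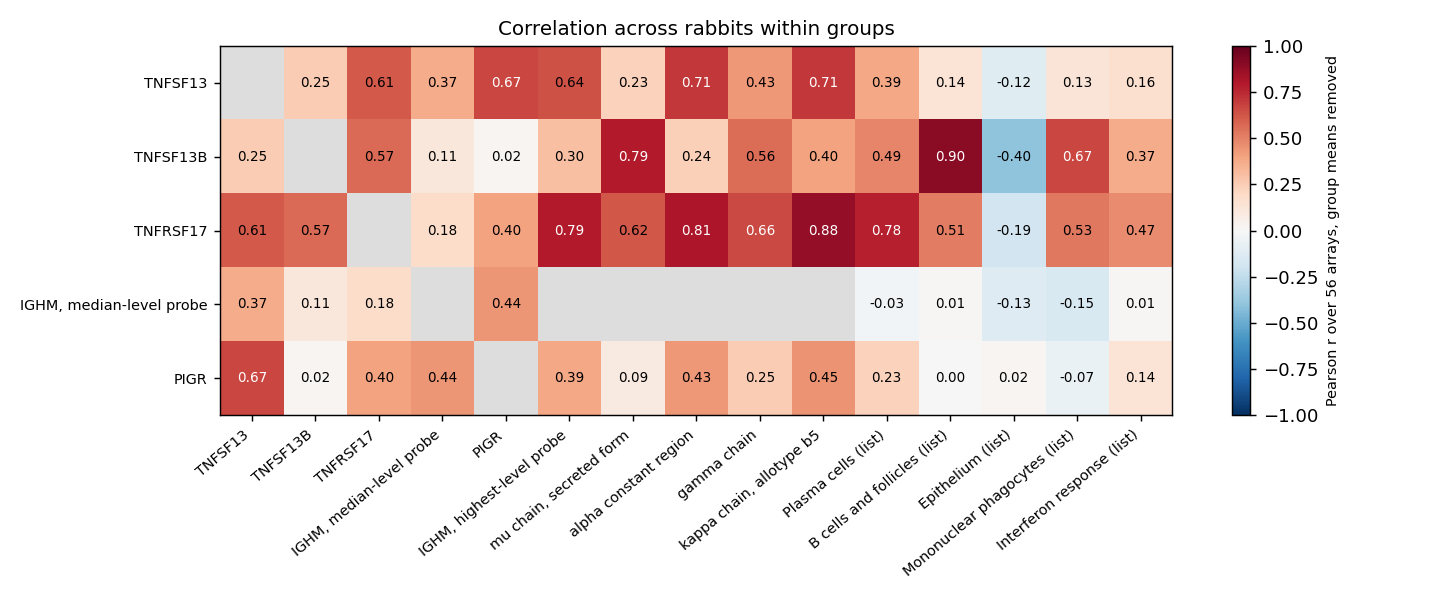
Pearson correlation over 56 arrays, after group means were removed, of the 5 genes with each other, with the immunoglobulin probes and with the means of the marker lists. TNFRSF17 reaches 0.88 with kappa and TNFSF13B reaches 0.90 with the B cell list, while PIGR has 0.00 with that list.

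By the same measure over the same 56 arrays, the genes most like PIGR among all genes tested were TNFSF13 (r = 0.67), UBD (0.64), SLAMF7 (0.63), MTIF3 (0.60) and PSMB8 (0.59). UBD is a ubiquitin-like modifier and PSMB8 a subunit of the immunoproteasome. Those most like TNFSF13 were DELE1 (0.71), LOC100356529 (0.68), PIGR (0.67), LRRC71 (0.66) and FAM81B (0.65). Those most like TNFRSF17 were DELE1 (0.80), TPST2 (0.79), ACP5 (0.77), FAM81B (0.76) and NCF4 (0.76). TNFSF13 and TNFRSF17 thus had DELE1 and FAM81B in both sets. Under other settings 2 to 4 of the 5 stayed for PIGR, 4 to 5 for TNFSF13 and 3 to 5 for TNFRSF17.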

How the data were processed

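Per the labels, ileal total RNA of each rabbit was hybridised to a 1-colour Agilent rabbit array. The authors deposited, for each array, scanner output with spot intensity after background subtraction and other columns flagging spots above background, saturated or outlying, and a table of quantile normalized log2 values for the probes they kept. Agilent Feature Extraction 10.7.3.1 is named in the submitters' processing notes, and the file headers name another version. The deposited table was used as an alternative; the median correlation of its arrays with the values used here was 0.991, and 0 of its columns belonged to no sample.

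Processed intensities were averaged over the spots of a probe without outlier spots (0.57%), taken to log2 and normalized by quantiles with limma 3.58.1 under R 4.3.3. A probe was kept where at least 0.5 of its spots were well above background on 75% of the arrays of 1 group or more. The probe of median level stood for each gene, and limma was fitted with 1 mean per group, p-values being adjusted by Benjamini-Hochberg over all 7960 genes, or over all 31722 probes for single probes. The fit was tested on simulated data. The replicates are separate rabbits, and their number limits the precision. Correlations used 100000 permutations within groups, so that 1e-05 is the smallest p they can give. Genes were named from the array files and the RefSeq table (names only), and 137 probes from gene names in the study's tables, whose fold changes and p-values were not used. Those 137 probes carry a name because the study called them changed with age. The text names the 5 genes, IGHVDJ, the list genes that passed and up to 4 of smallest p per list, and the 5 most correlated genes. The members and lists were chosen with earlier results of these data known. Alternatives were other scaling, background correction, filters, probe choice, slide blocks, array weights and leaving out arrays. The values of 1 gene of the lists are not reported here.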

Additional observations from a re-analysis of the deposited data

Results flagged for a closer look

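In 7 of 84 groups of values tested, 1 rabbit lay far from the rest of its group, and chance alone gives about 1 in 20 groups. Rabbit lap201 of FFab at day 49 accounted for 3 of them: TNFRSF17 at 7.65 with the nearest rabbit at 9.32, the b5 kappa probe at 13.31 with the nearest at 15.28, and the other kappa probe at 13.30 with the nearest at 14.98. This rabbit was the lowest of its group in PIGR and TNFSF13 too. Rabbit lap206 of NF at day 49, 1 of the 7 arrays low in ileal markers, read 14.00 on the other kappa probe with the nearest at 15.41. Rabbit lap80 of NF at day 35 read 2.89 for TNFSF13B with the nearest at 4.89. Rabbit lap94 of NF at day 35 was high for the alpha constant region, at 16.64 with the nearest at 15.79. Rabbit lap102 of FF at day 35 was high for the gamma chain, at 11.93 with the nearest at 9.56.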

How the results depend on the processing

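PIGR and TNFSF13 kept their direction and passed under every alternative run in FF (0.82 to 1.0 and 0.72 to 0.89) and over all rabbits (0.71 to 0.88 and 0.67 to 0.79), as did TNFRSF17 over all rabbits (0.60 to 0.77). The TNFRSF17 change in FF ranged from 0.85 to 1.06 with single rabbits left out. The IGHM change in FF ranged from 0.77 to 1.08 with single rabbits left out, and under the other settings from 0.37 with normexp background to 1.17 with its highest-level probe, the 1 of these that passed, with an adjusted p of up to 0.706. Over all rabbits IGHM no longer passed with normexp background (0.37), the authors' table (0.50) or probes above background on every array (0.60, read from the secreted mu probe), and with normexp 168 genes passed in place of 276. With array weights PIGR passed in FFab at 1.02 (adjusted p = 0.00892). In FFab, 0 members passed with all probes fitted together, all 57 arrays, slide as a fixed block, only FFab arrays or without the 7 low arrays, and 2 passed with array weights. The counts of genes passing were 0 to 16 in NF and 1 to 33 in FFab over the alternatives, against 3 and 6.

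Signs turned only in values that did not pass. The FF minus FFab difference of IGHM became 0.41 with the highest-level probe. The P235 change in FFab became 0.06 with slide as a fixed block, 0.03 with slide as a random block, 0.21 with array weights and 0.75 without the 7 low arrays. With array weights the FF minus NF difference of IGHM was -0.02 and the FF minus FFab difference of PIGR -0.08. Without the 7 low arrays these were -0.14 and -0.11, the TNFSF13B change in FFab was -0.07 and the NF minus FFab difference of TNFRSF17 0.22. The change of the probe named for the secreted mu chain in FFab was then -0.03. The correlation of PIGR and TNFSF13B was -0.02 with 75th percentile scaling, and that of TNFSF13B and IGHM -0.03 without the 2 farthest arrays. With single rabbits left out the ranges that crossed 0 were -0.13 to 0.42 for TNFSF13B in NF, -0.08 to 0.34 for TNFSF13B in FFab, -0.08 to 0.39 for IGHM in FF minus NF, -0.26 to 0.08 for IGHM in FF minus FFab, -0.21 to 0.34 for TNFSF13B and -0.32 to 0.08 for TNFRSF17 in NF minus FFab, -0.17 to 0.44 for P235 in FF, -0.26 to 0.17 for P235 in FFab and -0.09 to 0.73 for the probe named for the secreted mu chain in NF. The cause was not tested. Leaving out the 7 low arrays, and rabbit lap201 of FFab by itself, was chosen after seeing the data. No paired analysis was possible because each rabbit number occurs in 1 group only. The IGHM and TNFSF13B probes read were well above background on 52 and 44 of 56 arrays, which limits their precision.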

Other observations

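Interferon response genes were read beside the genes of IgA secretion, from a list drawn up with earlier results of these data known. Over all genes tested 2.8% were higher in FF and 2.39% over all rabbits. Of 12 on the list 10 were tested, 9 rose in FF (median change 2.00) and 10 over all rabbits (median 1.51), against a median of -0.01 in FF and 0.00 over all rabbits for all genes. In NF the median was 1.77 and in FFab 0.59, with 0 of 10 passing in either, against 0.0377% and 0.0754% of all genes. The NF count was 1 with the authors' table, all 57 arrays, slide as a random block, array weights or without the 7 low arrays, and reached 3 with single rabbits left out, changing without lap201 of FFab or lap206 or lap94 of NF. The list mean ran from 7.78 to 11.28 in FF at day 35 and from 8.58 to 13.32 at day 49, so that the ages overlapped. Its deviations went with those of TNFRSF17 at r = 0.47 and rho = 0.38 (adjusted permutation p = 0.00095 and 0.018), 0.40 without the 2 farthest arrays, and with those of PIGR at r = 0.14 and rho = 0.13 (adjusted permutation p = 0.4 and 0.55).

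Rabbit lap78 of NF at day 35, left out of the fit, read 17.36 for PIGR, where the other NF rabbits of that age read 15.51 to 16.69, and 13.06 for TNFSF13, where they read 11.30 to 12.74. Its TNFRSF17 level of 9.39 and alpha constant region level of 16.04 lay within their ranges. This array was also low in SLC10A2 (2.57) and FABP6 (9.32) and high in GATA4 (8.49), like the 7 arrays low in ileal markers.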
